A study of Homo sapiens with 11 samples.

Results

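Uroplakins and a set of urothelial transcription factors were followed through nickel exposure and its termination. The 10 genes were taken by name, as 5 uroplakins (UPK1A, UPK1B, UPK2, UPK3A and UPK3B) and 5 transcription factors (PPARG, GATA3, FOXA1, GRHL3 and ELF3), and all 10 were present among the 28252 genes of the RNA-Seq files and among the 26237 promoters of the ChIP-Seq files. Transcripts were measured in RT4, a line from a non-invasive human bladder tumor, in untreated (UT) cells, in cells kept in 100 μM NiCl2 for 6 weeks (Ni-E), and in cells washed free of nickel and grown for 2 further weeks (Ni-W), with 2 RNA-Seq libraries for each condition. H3K4me3, a histone mark of active promoters, was measured in BEAS-2B, a line of human bronchial epithelial cells, with 1 ChIP-Seq library each of UT cells, Ni-E cells with the same dose and duration, and Ni-W cells. The Ni-W cells of BEAS-2B came from 1 population grown from a single exposed cell and had spent more than 6 months without nickel, so the wash-out differed between the lines in length and in the choice of a clone. The comparisons address whether expression altered by nickel returns once exposure has ended.

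Uroplakins are the membrane proteins of the plaques that cover the apical face of umbrella cells, the outermost cells of the urothelium, and they make the bladder lining a barrier. The tetraspanin UPK1A pairs with UPK2, and the tetraspanin UPK1B pairs with UPK3A or UPK3B, before the pairs leave the endoplasmic reticulum and assemble into plaques. PPARG, a nuclear receptor that binds DNA with a retinoid X receptor, works with the pioneer factor FOXA1, the zinc finger factor GATA3, the ETS factor ELF3 and the grainyhead factor GRHL3 in urothelial differentiation, and several of them act on uroplakin genes.

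The promoters of the 10 genes differ in sequence. RefSeq promoters on GRCh38.p14 were available for 8 of the 10 genes, and UPK2 and UPK3A had no entry in the table used. In the 250 bases before the transcription start, the median of 34941 human promoters is 11 CpG dinucleotides. UPK1A has 4, UPK1B has 6 and UPK3B has 2, while FOXA1 has 26. ELF3 has 4, as few as UPK1A. The 6 starts of PPARG have 0 to 10 and the 2 starts of GRHL3 have 3 and 10, all below the median. The 6 starts of GATA3 have 4 to 30. The promoters of 4 genes are shown because the uroplakin promoters carried almost no H3K4me3 in BEAS-2B cells, FOXA1 and ELF3 lay above the median promoter, and ELF3 differed with nickel. UPK1A lies at chr19:35666267-35666516 (plus strand), UPK3B at chr7:76510302-76510551 (plus strand), FOXA1 at chr14:37595250-37595499 (minus strand) and ELF3 at chr1:202010337-202010586 (plus strand). Each is written 5′ to 3′ up to the base before the start, with CpG dinucleotides in capitals.
UPK1A: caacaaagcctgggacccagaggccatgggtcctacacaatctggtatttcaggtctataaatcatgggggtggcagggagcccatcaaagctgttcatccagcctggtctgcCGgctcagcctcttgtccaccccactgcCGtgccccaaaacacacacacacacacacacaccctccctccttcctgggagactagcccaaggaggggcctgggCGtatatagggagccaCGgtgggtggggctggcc
UPK3B: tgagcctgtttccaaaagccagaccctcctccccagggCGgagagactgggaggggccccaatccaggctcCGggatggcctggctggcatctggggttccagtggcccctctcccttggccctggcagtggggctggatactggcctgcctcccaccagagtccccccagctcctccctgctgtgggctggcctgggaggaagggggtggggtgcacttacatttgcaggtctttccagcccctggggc
FOXA1: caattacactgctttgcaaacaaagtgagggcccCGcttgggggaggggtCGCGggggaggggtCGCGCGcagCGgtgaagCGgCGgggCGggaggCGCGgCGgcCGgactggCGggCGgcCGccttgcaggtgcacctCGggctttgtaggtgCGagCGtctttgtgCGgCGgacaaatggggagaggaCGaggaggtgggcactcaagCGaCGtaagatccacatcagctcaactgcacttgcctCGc
ELF3: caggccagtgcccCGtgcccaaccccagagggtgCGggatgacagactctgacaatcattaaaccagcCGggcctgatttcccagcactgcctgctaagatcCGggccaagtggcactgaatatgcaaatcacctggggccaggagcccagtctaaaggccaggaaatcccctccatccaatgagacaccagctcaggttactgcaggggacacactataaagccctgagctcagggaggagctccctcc

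Short motifs were searched on both strands of these windows. The letters TATAAA lie 34 bases before the start of ELF3 and 194 bases before that of UPK1A, on either strand also 22 and 32 bases before a pair of PPARG starts and 205 bases before a start of GATA3, and 10.8% of the 34941 promoters hold them. The ETS core, AGGAAG or CGGAAG, lies 68 bases before the start of UPK1A and 52 bases before that of UPK3B and also occurs before starts of PPARG, GATA3 and GRHL3, but 40.7% of promoters hold it. A FOXA motif, TGTTTAC or TGTTTGC, lies 235 bases before the start of FOXA1 and 138 bases before the first of the 6 starts of GATA3, and is held by 6.1% of promoters. The GATA motif, AGATAA, occurs at 200 and at 169 bases before the first of the 2 starts of GRHL3 and at 159 bases before the fifth of the 6 starts of PPARG, and is held by 9.19% of promoters. The direct repeat bound by PPARG with its retinoid X receptor was found before none of the 8 genes with an entry, and in 0.0172% of promoters. Such matches describe the letters only.

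In untreated RT4 cells all 10 genes were strongly expressed. Levels are given as TPM, a transcript abundance scaled to the length of the transcript and the total of the library, so that genes can be compared. UPK2 had a mean of 343 ± 83.3 TPM (SD, n = 2), followed by UPK3B with 303 ± 14.0, ELF3 with 299 ± 8.37, GATA3 with 217 ± 27.7 and PPARG with 206 ± 2.71. FOXA1 had 133 ± 31.9, UPK1B 96.1 ± 13.9, UPK3A 83.4 ± 16.9, UPK1A 81.6 ± 15.5 and GRHL3 42.0 ± 2.33 TPM. The libraries of UPK2, UPK3B and ELF3 overlapped each other, as did those of GATA3 and PPARG and those of UPK1B, UPK3A and UPK1A, so the order within these sets is not resolved. GRHL3 stood below the others and still exceeded 87.67% of all listed genes, and UPK2 exceeded 98.62%.

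Of the 10 genes, UPK1A fell in nickel-exposed RT4 cells. A gene was called where it changed at least 1.5-fold with a Benjamini-Hochberg adjusted p below 0.05 in edgeR's quasi-likelihood test over all 14502 genes tested. All 10 genes passed the filter on low counts, and 1 of them was called in Ni-E vs UT, against 2.17% of all genes (314), of which 0.710% were lower. No member was called in Ni-W vs UT, where 0.600% of all genes (87) were called, 0.503% higher and 0.0965% lower. The comparison of Ni-W with Ni-E had 0 genes called by edgeR in all. With 2 libraries a condition these calls rest on each library: in Ni-E vs UT edgeR called 0 genes without either Ni-E library, 44 without UT replicate 1 and 18 without UT replicate 2, and in Ni-W vs UT 0 genes without UT replicate 2 or without either Ni-E library. The 10 genes had a median log2 fold change of −0.622 in Ni-E vs UT, −0.063 in Ni-W vs UT and 0.545 in Ni-W vs Ni-E, where the medians of all genes tested were −0.012, 0.001 and 0.018. As RNA was taken from whole cultures, fewer cells that make a transcript and less of it per cell cannot be told apart. Ni-E vs UT and Ni-W vs UT share the UT libraries, and the labels mark the second library of a condition only as a duplicate. The methods of the paper describe RNA from biological replicates, without saying how they were grown, and the p-values measure the spread between these samples.

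**Figure D1:**
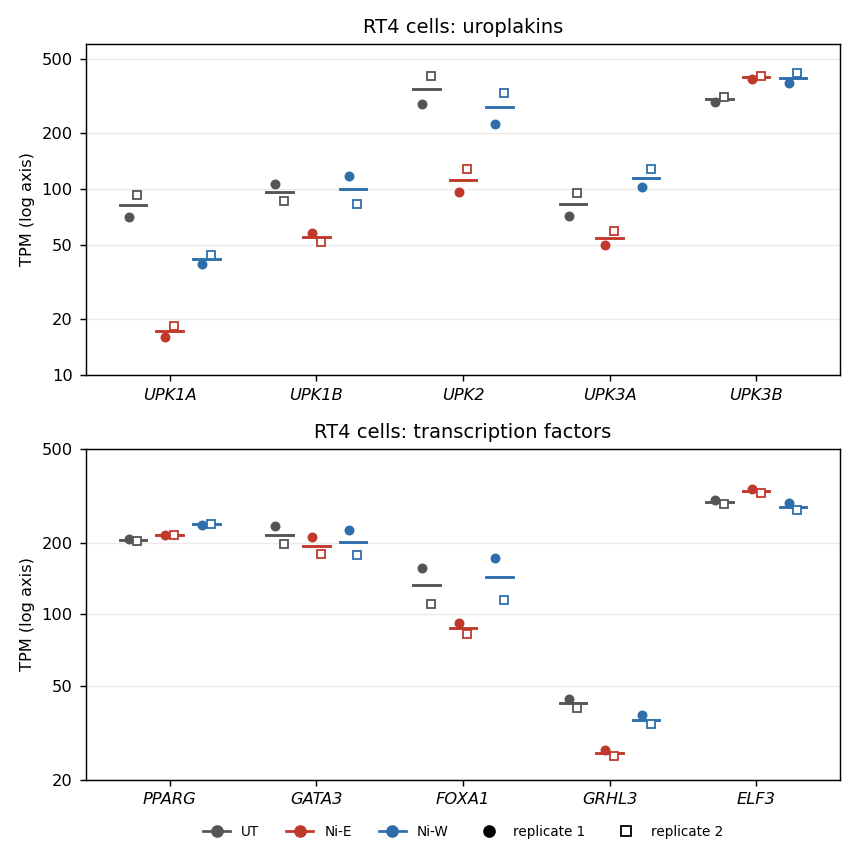
TPM (log axis) of the 5 uroplakins (top) and the 5 transcription factors (bottom) in the 6 RT4 libraries, with replicate 1 as a filled circle, replicate 2 as an open square and the mean of the 2 libraries as a bar. In Ni-E cells both libraries of UPK1A, UPK1B, UPK2, UPK3A, FOXA1 and GRHL3 lie below both UT libraries, and those of UPK3B lie above them.

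UPK1A, the tetraspanin that carries UPK2 to the cell surface, showed the largest difference among the 10 genes. It had 70.6 and 92.5 TPM in the UT libraries, 16.1 and 18.5 TPM in the Ni-E libraries, and 39.6 and 44.4 TPM in the Ni-W libraries. The 3 conditions did not overlap, with Ni-W cells between the others. The level in Ni-E cells was 0.207 of that in UT cells (log2 fold change −2.27 ± 0.33 SE, edgeR adjusted p = 0.0377). After the wash-out the log2 fold change against UT cells was −1.02 ± 0.32, which did not pass in this fit without a block (edgeR adjusted p = 0.350). The difference of 1.25 ± 0.33 from Ni-E cells did not pass either (edgeR adjusted p = 0.476). Apart from fits with a library left out, the adjusted p over the alternatives (edgeR, DESeq2 or limma) ranged widely. It ran from 0.000531 to 0.626 in Ni-W vs UT and from 0.000662 to 0.609 in Ni-W vs Ni-E. The call in Ni-E cells rests on all 4 libraries of that contrast, since leaving out any 1 of them gave an edgeR adjusted p between 0.0706 and 0.321, with a log2 fold change between −2.56 and −1.90 over all libraries left out. UPK1A shares 271 exonic bases with UPK1A-AS1 on the other strand, for which 38 and 54 estimated counts were listed for UT, 15 and 11 for Ni-E and 16 and 22 for Ni-W. UPK1A itself had 763 and 1655, 174 and 338, and 369 and 807 estimated counts. Whether the counting used strand is not given in the sources used here, so reads in the shared bases cannot be told apart.

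UPK2, the partner of UPK1A, had the highest mean of the uroplakins in UT cells, although UPK3B was above it in replicate 1. Its levels were 285 and 402 TPM in UT cells, 96.2 and 128 TPM in Ni-E cells, and 222 and 328 TPM in Ni-W cells. The Ni-E libraries were below all others, and those of UT and Ni-W cells overlapped. The log2 fold change was −1.65 ± 0.43 in Ni-E vs UT (edgeR adjusted p = 0.159), −0.36 ± 0.42 in Ni-W vs UT and 1.29 ± 0.43 in Ni-W vs Ni-E (edgeR adjusted p = 0.695). None of these passed in edgeR, whereas with DESeq2 UPK2 was called in Ni-E vs UT (DESeq2 adjusted p = 0.00504). Over all alternatives the adjusted p of UPK2 in Ni-E vs UT ranged from 7.88e-06 to 0.747 (edgeR, DESeq2 or limma). UPK2 shares 54 exonic bases with BCL9L on the other strand.

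UPK1B, the tetraspanin partner of the UPK3 proteins, had 106 and 86.2 TPM in UT cells, 58.0 and 51.9 TPM in Ni-E cells, and 117 and 82.6 TPM in Ni-W cells. Again the Ni-E libraries were the lowest pair and the other conditions overlapped. The log2 fold change of −0.81 ± 0.16 in Ni-E vs UT did not pass (edgeR adjusted p = 0.0712), nor did that of 0.81 ± 0.16 in Ni-W vs Ni-E (edgeR adjusted p = 0.290). In Ni-W vs UT it was −0.01 ± 0.15. UPK1B shares 33 exonic bases with another protein-coding gene on the same strand. DESeq2 called UPK1B in Ni-E vs UT (DESeq2 adjusted p = 0.00733) and in Ni-W vs Ni-E (DESeq2 adjusted p = 0.0343), and over all alternatives (edgeR, DESeq2 or limma) the adjusted p ranged from 0.000365 to 0.541 and from 0.0016 to 1.

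UPK3A and UPK3B, which share the partner UPK1B, differed in direction. UPK3A had 71.4 and 95.4 TPM in UT cells, 49.8 and 59.2 TPM in Ni-E cells, and 102 and 127 TPM in Ni-W cells. UPK3B had 293 and 313 TPM in UT cells, 391 and 406 TPM in Ni-E cells, and 368 and 420.5 TPM in Ni-W cells. Thus UPK3A was lowest in Ni-E cells and highest in Ni-W cells with no overlap between the conditions, while UPK3B was lowest in UT cells and its Ni-E and Ni-W libraries overlapped. The log2 fold changes of UPK3A were −0.63 ± 0.34 in Ni-E vs UT (edgeR adjusted p = 0.614), 0.41 ± 0.34 in Ni-W vs UT and 1.04 ± 0.34 in Ni-W vs Ni-E (edgeR adjusted p = 0.689). For UPK3B they were 0.42 ± 0.22 (edgeR adjusted p = 0.592), 0.34 ± 0.22 and −0.08 ± 0.22, and none of the 6 passed in this fit without a block. Apart from fits with a library left out, the adjusted p in Ni-E vs UT (edgeR, DESeq2 or limma) varied over the alternatives. It ran from 0.00764 to 0.702 for UPK3A and from 0.0171 to 0.855 for UPK3B. UPK3B has related genes, UPK3BL1 and UPK3BL2, with which reads could be shared. The estimated counts of UPK3B were exactly whole numbers (tolerance 0) in all 6 libraries, as those of the other 9 members were, whereas the counts of UPK3BL1 were fractional in each.

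UPK3B made up a larger share of the uroplakin transcripts in both Ni-E libraries than in any other library. The summed TPM of the 5 uroplakins was 826 to 989 for UT, 611 to 663 for Ni-E and 849 to 1003 for Ni-W. UPK3B accounted for 35.5% and 31.6% of this sum in the UT libraries, 64.0% and 61.2% in the Ni-E libraries, and 43.4% and 41.9% in the Ni-W libraries. UPK2 accounted for 34.5% and 40.7%, 15.7% and 19.3%, and 26.1% and 32.7% in the same order. Among the partners, the ratio of UPK2 to UPK1A in TPM was 4.03 and 4.35 for UT, 5.97 and 6.92 for Ni-E and 5.61 and 7.39 for Ni-W. The ratio of UPK3A and UPK3B together to UPK1B was 3.44 and 4.73, 7.60 and 8.96, and 4.0 and 6.63. Both ratios were higher in each Ni-E library than in each UT library, and in Ni-W cells the first lay above the UT range while the second overlapped it. With 2 libraries against 2, a two-sided exact permutation test cannot go below p = 0.333, the value it gave for each of these differences without overlap.

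**Figure D2:**
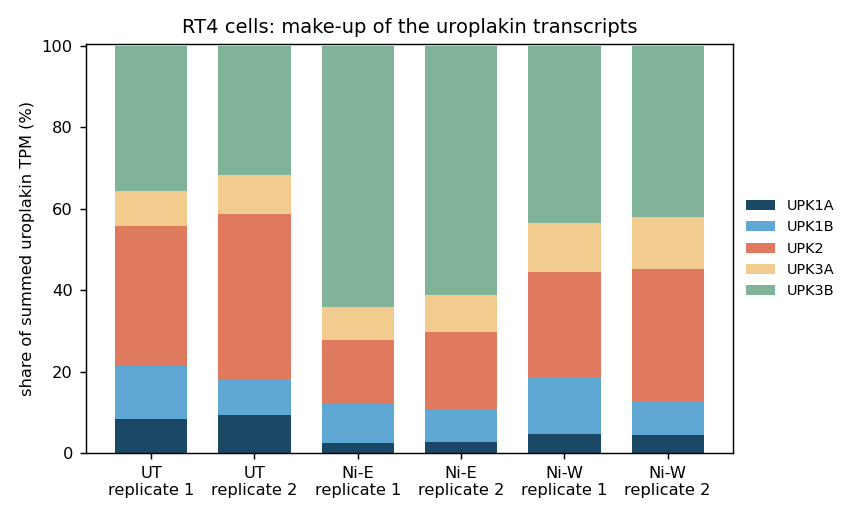
Share of each uroplakin in the summed TPM of the 5 uroplakins (percent, stacked bars) in each of the 6 RT4 libraries. UPK3B takes 61.2% to 64.0% of the bar in Ni-E cells, 31.6% to 35.5% in UT cells and 41.9% to 43.4% in Ni-W cells.

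None of the 5 transcription factors was called in any comparison in the edgeR fit, which has no replicate block, and their median log2 fold change was −0.16 in Ni-E vs UT. PPARG had 207 and 204 TPM in UT cells, 217 and 215 TPM in Ni-E cells, and 238 and 242 TPM in Ni-W cells. These conditions did not overlap, yet the log2 fold changes were 0.06 ± 0.20 in Ni-E vs UT and 0.17 ± 0.20 in Ni-W vs UT, both within their errors. GATA3 had 236 and 197 TPM in UT cells, 211 and 179 TPM in Ni-E cells, and 228 and 178 TPM in Ni-W cells, so that all 3 conditions overlapped. ELF3 had 304 and 293 TPM in UT cells, 339 and 324 TPM in Ni-E cells, and 294 and 275 TPM in Ni-W cells. The Ni-E libraries of ELF3 were the highest pair by a small margin, with a log2 fold change of 0.14 ± 0.18 in Ni-E vs UT (edgeR adjusted p = 0.973) and −0.26 ± 0.18 in Ni-W vs Ni-E. ELF3 shares 664 exonic bases with ELF3-AS1 on the other strand, to which the same limit on strand applies. It also shares 664 exonic bases with another noncoding gene on its own strand, which counting by strand would not separate.

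FOXA1 and GRHL3 each had a lower level in Ni-E cells than in UT or Ni-W cells. FOXA1, which opens chromatin for other factors, had 156 and 111 TPM in UT cells, 92.2 and 82.2 TPM in Ni-E cells, and 172 and 115 TPM in Ni-W cells. GRHL3, which directs the terminal differentiation of surface epithelia, had 43.7 and 40.4 TPM, 26.7 and 25.2 TPM, and 37.5 and 34.4 TPM. For both genes the Ni-E libraries lay below all others, and the Ni-W libraries overlapped UT cells for FOXA1 and lay between the other conditions for GRHL3. The log2 fold changes in Ni-E vs UT were −0.61 ± 0.17 for FOXA1 (edgeR adjusted p = 0.177) and −0.69 ± 0.18 for GRHL3 (edgeR adjusted p = 0.157), and neither passed in this fit without a block. Apart from fits with a library left out, the adjusted p over the alternatives (edgeR, DESeq2 or limma) ranged widely. It ran from 0.00177 to 0.581 for FOXA1 and from 0.00193 to 0.224 for GRHL3. Against Ni-E cells, Ni-W cells had 0.66 ± 0.17 for FOXA1 (edgeR adjusted p = 0.467) and 0.43 ± 0.18 for GRHL3 (edgeR adjusted p = 0.910).

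**Figure D3:**
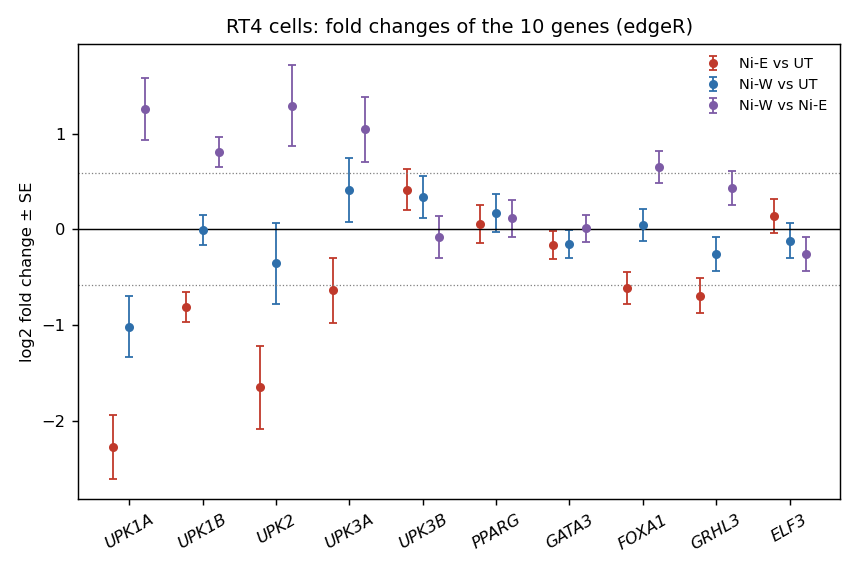
Log2 fold changes (points) with their standard errors (bars) from edgeR for the 10 genes in Ni-E vs UT, Ni-W vs UT and Ni-W vs Ni-E of RT4 cells, with dotted lines at a 1.5-fold change. In Ni-E vs UT, UPK1A lies lowest at −2.27, and 6 of the 10 points lie beyond the lower dotted line.

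Counted by libraries, 6 of the 10 genes (UPK1A, UPK1B, UPK2, UPK3A, FOXA1 and GRHL3) had both Ni-E libraries below both UT libraries in TPM, as did 19.8% of all genes tested, and 3 (UPK3B, PPARG and ELF3) had them above, as did 18.8%. In Ni-W vs UT, 2 genes (UPK1A and GRHL3) were below without overlap, where 13.4% of all genes were, and 3 (UPK3A, UPK3B and PPARG) were above, where 14.9% were. From Ni-E to Ni-W cells, 7 genes were above without overlap, where 14.6% of all genes were, and these were the 6 genes below UT cells in Ni-E cells together with PPARG. ELF3 was the 1 gene below, where 10.5% of all genes were. At an unadjusted p below 0.05, edgeR gave 5 members in Ni-E vs UT, 1 in Ni-W vs UT and 5 in Ni-W vs Ni-E, among 1773, 1323 and 808 genes. DESeq2 called 139 genes in Ni-W vs Ni-E, of which UPK1B was the 1 member.

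Other genes of urothelial differentiation were described from lists. Of 14 markers of luminal urothelium other than the members, 3 fell in Ni-E vs UT and 2 in Ni-W vs UT, with none higher, and the median log2 fold change of the list was −0.16 and −0.02. KRT20, the keratin of umbrella cells, had 11.1 and 11.3 TPM in UT cells, 0.25 and 0.11 TPM in Ni-E cells, and 1.59 and 1.37 TPM in Ni-W cells. Its log2 fold change was −6.03 ± 0.41 in Ni-E vs UT (edgeR adjusted p = 0.0085), which rests on 4 and 3 estimated counts in Ni-E cells against 177 and 297, and −2.97 ± 0.32 in Ni-W vs UT (edgeR adjusted p = 0.0294). KRT13, a keratin of stratified epithelia, had 34.5 and 37.4 TPM, 5.36 and 5.86 TPM, and 6.45 and 6.48 TPM, with log2 fold changes of −2.69 ± 0.27 in Ni-E vs UT (edgeR adjusted p = 0.0169) and −2.52 ± 0.27 in Ni-W vs UT (edgeR adjusted p = 0.0294). PSCA, a surface antigen of urothelium and prostate, had 138 and 170.2 TPM in UT cells, 12.0 and 15.7 TPM in Ni-E cells, and 76.8 and 95.2 TPM in Ni-W cells. It fell in Ni-E vs UT (log2 fold change −3.49 ± 0.38, edgeR adjusted p = 0.0201) and had a log2 fold change of −0.88 ± 0.35 in Ni-W vs UT, which did not pass (edgeR adjusted p = 0.523). Like UPK1A, KRT20 and PSCA in Ni-W cells were thus between Ni-E and UT cells, while KRT13 in Ni-W cells was close to its level in Ni-E cells.

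Of 12 basal and squamous markers, 8 were tested, 1 rose in Ni-E vs UT, and none was called in Ni-W vs UT. COL17A1, a collagen of the hemidesmosomes that anchor basal cells, had 37.4 and 31.3 TPM in UT cells, 90.2 and 74.7 TPM in Ni-E cells, and 76.3 and 51.9 TPM in Ni-W cells, with a log2 fold change of 1.25 ± 0.16 in Ni-E vs UT (edgeR adjusted p = 0.0266). The median log2 fold change of the 8 genes was 0.79 in Ni-E vs UT and 0.405 in Ni-W vs UT.

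Among listed targets of PPARG, ANGPTL4 rose in Ni-E cells. ANGPTL4, a secreted inhibitor of lipoprotein lipase that is also induced under hypoxia, had 11.2 TPM in both UT libraries, 57.0 and 64.8 TPM in Ni-E cells, and 38.2 and 48.7 TPM in Ni-W cells. It rose in Ni-E vs UT (log2 fold change 2.42 ± 0.31, edgeR adjusted p = 0.0281), and its log2 fold change of 1.93 ± 0.31 in Ni-W vs UT did not pass (edgeR adjusted p = 0.0773). None of the 10 tested partners and coregulators of PPARG was called in any comparison, nor was any of the 21 tested epithelial transcription factors outside the members, of the 14 tetraspanins, or of the 10 genes of uroplakin family and trafficking. RXRB, a partner of PPARG, is listed at 0 in all 6 libraries.

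**Figure D4:**
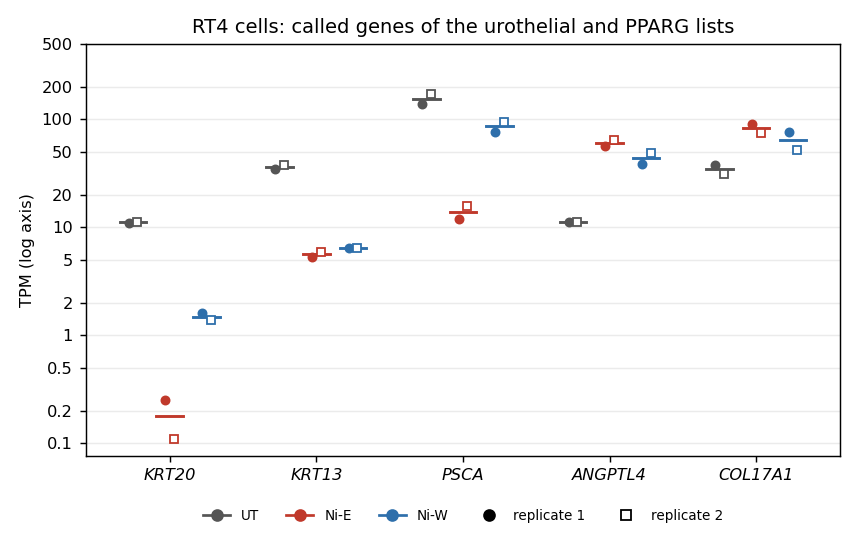
TPM (log axis) of 5 called genes of the luminal, basal and PPARG target lists in the 6 RT4 libraries, with replicate 1 as a filled circle, replicate 2 as an open square and the mean as a bar. KRT20, KRT13 and PSCA are lower and ANGPTL4 and COL17A1 higher in each Ni-E library than in each UT library.

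The identity of the RT4 libraries was checked with markers. The 7 epithelial identity genes summed to between 8253 and 9865 TPM in every library. The 8 fibroblast markers summed to 1.15 to 1.85 TPM in UT cells, 3.29 to 5.08 TPM in Ni-E cells and 2.47 to 5.51 TPM in Ni-W cells, with COL1A2 and DCN at 0 throughout, and the 6 immune markers to 7.58 to 8.14, 10.9 to 13.5 and 13.56 to 13.65 TPM, with CD3E at 0 throughout. The 7 bronchial markers summed to 0.36 to 1.97 TPM and the 5 endothelial markers to 0.61 to 1.90 TPM over all libraries. Their part in the lower uroplakin levels was not tested. The libraries held 17075833 to 27736454 estimated counts.

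In BEAS-2B cells the 5 uroplakin promoters carried almost no H3K4me3. The signal is a read density scaled to length and depth (RPKM) over the promoter, 2 kb on each side of the start, and 1 RPKM was taken as the level of a marked promoter. None of the 5 uroplakins reached it in any library, against 52.8% of all promoters for UT, 52.2% for Ni-E and 51.0% for Ni-W. Of the transcription factors, 4 of 5 reached it in each library and lay above the median promoter of the library, which was 1.57 RPKM for UT, 1.39 for Ni-E and 1.12 for Ni-W. There was 1 library for each condition, so the differences have no replicate check and no test was made. The 95% Wilson intervals given with the values come from the reads behind each promoter and cover counting error only.

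UPK3A had the most reads of the uroplakins in the UT library, with 0.379 RPKM (43 reads, interval 0.281 to 0.510) for UT, 0.313 for Ni-E and 0.393 for Ni-W. UPK3B had the fewest, with 0.053 RPKM in UT cells and 0.067 in Ni-E and in Ni-W cells, from 6, 10 and 8 reads. UPK1A, the gene that fell in RT4 cells, had 0.211 RPKM (0.142 to 0.315) for UT, 0.140 (0.0916 to 0.214) for Ni-E and 0.125 (0.0759 to 0.207) for Ni-W. The intervals of the 3 conditions overlapped for these genes, as they did for UPK2, which had 0.176, 0.187 and 0.10 RPKM. UPK1B had 0.291 RPKM (0.207 to 0.408) for UT, 0.207 (0.146 to 0.293) for Ni-E and 0.426 (0.324 to 0.560) for Ni-W. The interval of UPK1B in Ni-W cells lay above that in Ni-E cells but overlapped that in UT cells, and all 3 values stayed below a marked promoter.

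**Figure D5:**
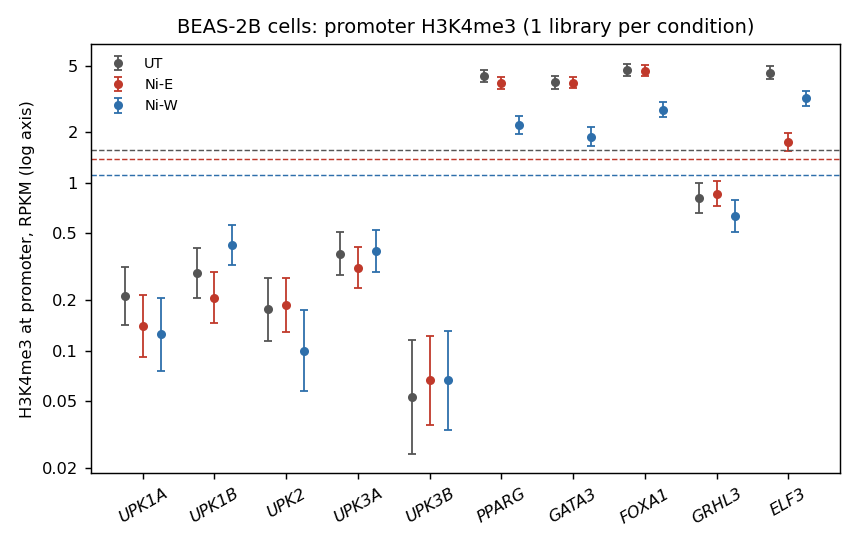
H3K4me3 in RPKM (log axis) at the promoters of the 10 genes in 1 UT, 1 Ni-E and 1 Ni-W library of BEAS-2B cells, with 95% Wilson intervals as bars and the median promoter of each library as a dashed line in its color. The 5 uroplakins and GRHL3 lie below the 3 dashed lines, and the interval of ELF3 in Ni-E cells lies apart from those in UT and Ni-W cells.

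Among the transcription factors ELF3 stood out. Its promoter had 4.55 RPKM in UT cells (517 reads, 4.18 to 4.96), 1.76 RPKM in Ni-E cells (264 reads, 1.56 to 1.99) and 3.20 RPKM in Ni-W cells (383 reads, 2.89 to 3.54). The 3 intervals did not overlap, with Ni-E cells the lowest. After each library was divided by its median promoter, the ratio of Ni-E to UT cells was 0.437 (0.377 to 0.507, a 95% interval from the reads on the log scale), that of Ni-W to UT cells 0.985 (0.863 to 1.12), and that of Ni-W to Ni-E cells 2.25 (1.93 to 2.63). A ratio of at least 1.5-fold was counted as a difference, and in Ni-E vs UT it was reached by 1.41% of the promoters with at least 1 RPKM in either library (197 of 13935), and toward lower levels by 0.567% and toward higher levels by 0.847%. ELF3 was the 1 member to reach it. Among all promoters with more than 3 reads in both libraries, a wider set, 0.2% had a lower ratio than ELF3. From Ni-E to Ni-W cells, 34.6% of promoters with at least 1 RPKM in either library reached 1.5-fold, and toward higher levels, as ELF3 did, 4.04%. Without division by the median the ELF3 ratios were 0.387, 0.703 and 1.82, and after quantile normalization 0.445, 1.24 and 2.78, where ELF3 was among the 1.14% past 1.5-fold in Ni-E vs UT and among the 13.8% in Ni-W vs Ni-E. Ni-E cells were lowest each time and the order of Ni-W and UT cells depended on the scaling. ELF3-AS1 starts 124 bases from ELF3, so the window holds both starts and their H3K4me3 cannot be told apart.

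PPARG, GATA3 and FOXA1 had similar levels in UT and Ni-E cells and lower levels in Ni-W cells. PPARG had 4.34 RPKM (3.98 to 4.74), 3.93 (3.62 to 4.26) and 2.21 (1.96 to 2.50) in the order UT, Ni-E and Ni-W, GATA3 3.98 (3.63 to 4.37), 3.97 (3.66 to 4.30) and 1.89 (1.66 to 2.15), and FOXA1 4.74 (4.35 to 5.16), 4.67 (4.34 to 5.03) and 2.74 (2.46 to 3.05). The Ni-W library was lower at most promoters, with a median log2 ratio of Ni-W to UT cells of −0.81 without division by the median and −0.32 with it. The log2 ratios without division were −0.97 for PPARG, −1.08 for GATA3 and −0.79 for FOXA1. After division by the median, GATA3 had a ratio of 0.665 (0.566 to 0.780) in Ni-W vs UT, which reached the 1.5-fold difference. Of the promoters with at least 1 RPKM in either library, 22.8% reached it, 18.4% toward lower and 4.36% toward higher levels. Among all promoters with more than 3 reads in both libraries, 14.0% had a lower ratio than GATA3. Its ratio in Ni-W vs Ni-E was 0.590 (0.506 to 0.688), a difference of 1.5-fold toward lower levels that 30.5% of promoters also reached. PPARG had 0.714 and FOXA1 0.810 in Ni-W vs UT. The excess of lower promoters depends on the scaling, with 613 higher and 2588 lower after division by the median and 1133 higher and 742 lower after quantile normalization in Ni-W vs UT, and 564 higher and 4262 lower against 1122 higher and 811 lower in Ni-W vs Ni-E. After quantile normalization the ratios in Ni-W vs UT were 0.883 for PPARG, 0.805 for GATA3 and 1.01 for FOXA1, so that FOXA1 was no longer lower and GATA3 no longer reached 1.5-fold, which 13.3% of promoters then did. GATA3-AS1 starts 157 bases from GATA3 and TTC6 380 bases from FOXA1, and each shares most of the window.

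GRHL3 was the 1 transcription factor below 1 RPKM, with 0.810 RPKM (0.661 to 0.994) for UT, 0.860 (0.724 to 1.02) for Ni-E and 0.635 (0.507 to 0.794) for Ni-W, and the 3 intervals overlapped. The H3K4me3 of BEAS-2B cells and the transcripts of RT4 cells come from different lines and different wash-outs. For ELF3, the promoter was lower in Ni-E than in UT cells of BEAS-2B, while the transcript in RT4 cells was 339 and 324 TPM in Ni-E cells and 304 and 293 TPM in UT cells.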

How the data were processed

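The deposited RNA-Seq tables of the authors hold RSEM estimated counts and TPM, summed by gene over RefSeq transcripts. The paper names STAR on hg19, while the labels name GRCh38, and the RSEM version is not given in the sources used here. Estimated counts were rounded and tested with edgeR 4.0.16 (quasi-likelihood, TMM factors, filterByExpr) in 1 model of the 3 RT4 groups, without a block. The SE of a log2 fold change was its size divided by the root of the F value. TPM gave the levels.

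For ChIP-Seq the authors aligned with BWA and deposited promoter RPKM without peak calling. Whole reads recovered from the RPKM steps gave depths of 28385722, 37493942 and 29933505 reads for UT, Ni-E and Ni-W cells. The start sites used are not given in the sources used here. The labels give 2 weeks of wash-out for both lines and more than 6 months for the BEAS-2B population examined.

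The members, gene lists and tests were chosen with earlier results of these data known. All members are named, and from each other list the called genes, at most 3 with the smallest adjusted p. Results that need a withheld item are not reported here. Genes on the other strand or with shared exonic bases, UPK3B relatives and single list genes outside this rule were added to the text once values were known. The count and ratio steps were tested on simulated data. Alternatives were DESeq2 1.42.0, limma 3.58.1 on log2(TPM + 1) and log2(TPM + 0.1), other count filters, only the groups compared, a replicate block, each library left out, and for ChIP-Seq other scalings and thresholds. R 4.3.3 and Python 3.11.15 were used. ChIP inputs and BEAS-2B RNA were not analysed here.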

Additional observations from a re-analysis of the deposited data

How the results depend on the processing

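Over the alternatives, 415 of 450 fold changes of the members in RT4 cells kept their direction and their side of the threshold, 14 passed it newly, 4 no longer did and 17 turned sign. Members called in Ni-E vs UT numbered 1 in edgeR, 3 with DESeq2 (UPK1A, UPK1B and UPK2), and 0 to 1 with a library left out, being 0 without any 1 of the UT or Ni-E libraries. DESeq2 gave 1 in Ni-W vs Ni-E (UPK1B). Genes called in Ni-E vs UT numbered 730 with DESeq2, 209 with at least 10 counts in every sample, 170 to 173 with limma, 120 with limma without a filter, and 0 to 320 with a library left out, the 0 being without either Ni-E library, 44 without UT replicate 1 and 18 without UT replicate 2. In Ni-W vs UT they numbered 442 with DESeq2, 193 without a filter, 54 with at least 10 counts, 0 with only the groups compared, and 0 to 38 with a library left out. Between Ni-W and Ni-E they numbered 139 with DESeq2, 14 without a filter, and 11 with limma on log2(TPM + 0.1). The cause of these changes was not tested, beyond the fewer libraries or genes that some leave.

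The replicate numbers are shared by suffix only, and the labels do not say what else same-numbered libraries share. Their deviations from the group means correlated (r across 11141 genes, which are not independent replicates, 0.845 for UT and Ni-E, 0.911 for UT and Ni-W and 0.838 for Ni-E and Ni-W). With a replicate block, members called numbered 6 in Ni-E vs UT (UPK1A, UPK1B, UPK2, UPK3A, FOXA1 and GRHL3), 1 in Ni-W vs UT (UPK1A) and 5 in Ni-W vs Ni-E (UPK1A, UPK1B, UPK2, UPK3A and FOXA1), and all genes called 1833, 1243 and 655.

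The 17 sign changes were of fold changes that were not called in either sign. With a library left out, PPARG ranged from −0.035 to 0.164 in Ni-E vs UT. Comparing Ni-W with UT, UPK1B had 0.043 with limma and −0.063 to 0.051 with a library left out, UPK2 −0.908 to 0.081, FOXA1 −0.063 to 0.162, ELF3 −0.273 to 0.027 and PPARG −0.035 to 0.365. Between Ni-W and Ni-E, GATA3 ranged from −0.028 to 0.053, UPK3B from −0.327 to 0.146 and PPARG from −0.095 to 0.31.

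For H3K4me3 in Ni-E vs UT, 197 promoters became 50 with at least 3 RPKM and 36 at 2-fold, and ELF3 was the member counted each time. In Ni-W vs UT, members past 1.5-fold numbered 3 without median scaling and 0 with quantile normalization or at 2-fold, and promoters 10268, 1875 and 480. Between Ni-W and Ni-E, members numbered 4, 1 and 1, and promoters 9277, 1933 and 625. The lowest H3K4me3 values rest on 6 to 10 reads (UPK3B), and the level of KRT20 in Ni-E cells on 4 and 3 estimated counts.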

Other observations

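The uroplakins also differed between the libraries of a condition. After TMM normalization, replicate 2 was above replicate 1 in all 3 conditions for 4 of the 5 uroplakins and for 7 of the 10 members. The same held for 37.4% of the 14502 genes tested, and the reverse for 35.6%, so that a like order in all conditions is common. For UPK2 the log2 difference was 0.77 for UT, 0.57 for Ni-E and 0.95 for Ni-W, and for UPK3A it was 0.63, 0.365 and 0.71. For UPK1B it was −0.03, 0.003 and −0.12, and for FOXA1 −0.22, −0.002 and −0.20. In TPM, ELF3 and GRHL3 were lower in replicate 2 in all 3 conditions, and PPARG was lower there in UT and Ni-E cells. The replicate 2 libraries held more estimated counts (25721265 to 27736454) than the replicate 1 libraries (17075833 to 18280556).

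Promoters of the called luminal and PPARG target genes were unequal in BEAS-2B cells. KRT20 had 0 reads in all 3 H3K4me3 libraries, where a floor of 3 reads is 0.0264 RPKM for UT, 0.02 for Ni-E and 0.0251 for Ni-W and the upper 95% Wilson limits are 0.0338, 0.0256 and 0.0321, for counting error only. KRT13 had 0.176, 0.393 and 0.217 RPKM in the order UT, Ni-E and Ni-W, all below 1 RPKM. PSCA, in contrast, had 5.055, 4.68 and 2.50 RPKM, and ANGPTL4 2.35, 2.34 and 1.43 RPKM.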
